A study of Rattus norvegicus with 6 samples.

Results

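The proteasome is the large protease complex that degrades proteins tagged with ubiquitin. The results here concern its constitutive subunits: 39 of the 16849 genes counted in RSC96, an immortalised line of rat Schwann cells. Members were taken by gene symbol alone. They are the 42 genes whose symbol begins with Psma, Psmb, Psmc, Psmd or Psme and ends in a number, without the 3 catalytic subunits of the immunoproteasome, Psmb8, Psmb9 and Psmb10. By role they are 7 genes of the outer alpha rings of the core particle (Psma1 to Psma7) and 8 genes of its inner beta rings (Psmb1 to Psmb7 and Psmb11). The regulatory particle adds 9 genes of its base (Psmc1 to Psmc6, Psmd1, Psmd2 and Psmd4) and 8 genes of its lid (Psmd3, Psmd6, Psmd7, Psmd8, Psmd11, Psmd12, Psmd13 and Psmd14). Another 3 members, Psmd5, Psmd9 and Psmd10, carry subunit names but encode chaperones that assemble the base, and 4 members, Psme1 to Psme4, encode activators that cap the core in place of the regulatory particle.

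RNA was sequenced from 3 groups of 2 libraries of wild-type RSC96 cells. PVDF@PDA cells were kept in hypoxia with the piezoelectric material PVDF@PDA, PCL@PDA cells were kept in hypoxia with the non-piezoelectric material PCL@PDA, and the third group is labelled Control only. Hypoxia was modelled by 24 h in medium conditioned by macrophages, and it is not stated whether Control cells received that medium, so a difference from Control is a difference between whole conditions. The study asked what piezoelectricity adds, and the nearest comparison is that of PVDF@PDA with PCL@PDA. The materials themselves differ as well, so piezoelectricity and other traits of the material cannot be told apart in it. All cells are 1 immortalised line, and libraries are named replicate 1 (batch 1) and replicate 3 (batch 3) as in the labels. Library names number replicate 3 as 2 in each group, and the titles were followed. The free text of the PCL@PDA libraries names PVDF@PDA, and their titles and treatment fields were followed instead. The labels do not say that libraries came from separate cultures, so p-values reflect the spread among the 6 libraries alone, and that spread can be technical.

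In the core particle, stacked rings form a chamber: the alpha rings gate its entrance and the beta rings hold the proteolytic sites, carried by Psmb6 (caspase-like), Psmb7 (trypsin-like) and Psmb5 (chymotrypsin-like activity). The base unfolds substrates with a ring of ATPases and binds ubiquitin, and the lid removes the ubiquitin chain before the substrate is threaded into the core. In mammalian cells the subunit genes are transcribed together at a high basal level, and the transcription factor Nfe2l1 raises them when proteasome activity falls short. Interferon exchanges the 3 catalytic subunits for Psmb9, Psmb10 and Psmb8, which makes the immunoproteasome, and raises the activator pair Psme1 and Psme2.

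From 32760123 to 35389307 reads were counted per library, and 13018 genes had enough counts to be tested. The counts of replicates 1 and 3 differed by a chi-square per degree of freedom of 4.83 in PVDF@PDA, 10.4 in PCL@PDA and 5.57 in Control, so the PCL@PDA libraries were the least alike and no pair matched within sampling noise. Of the Schwann cell markers, Ncam1 was at 138 and 138 CPM (counts scaled to the library total) in PVDF@PDA, 129 and 124 CPM in PCL@PDA and 101 and 111 CPM in Control. Erbb3 was at 11.3 and 10.2 CPM in PVDF@PDA, 12 and 11.1 CPM in PCL@PDA and 17.8 and 17.5 CPM in Control. S100b did not exceed 0.840 CPM in any library, and Ngfr did not exceed 0.121 CPM, so these Schwann cell markers were near 0. Of 10 macrophage markers listed, 7 were counted, with a summed level of 6.07 and 6.34 CPM in PVDF@PDA, 5.96 and 4.96 CPM in PCL@PDA and 6.33 and 6.66 CPM in Control. Cd14 made up most of that sum. Cd14 was at 4.95 and 5.05 CPM in PVDF@PDA, 4.51 and 4.79 CPM in PCL@PDA and 5.91 and 6.11 CPM in Control. Cd68 was at 0.698 and 0.905 CPM in PVDF@PDA, 0.868 and 0.0876 CPM in PCL@PDA and 0 and 0.287 CPM in Control. Cd14 was thus lower in both material groups than in Control, and Cd68 was higher in PVDF@PDA. Neither passed the test described below against Control. Ptprc, also on that list, was at 0 in 5 libraries and at 0.0287 CPM in Control replicate 3. The 4 fibroblast markers counted summed to 203 and 216 CPM in PVDF@PDA, 211 and 220 CPM in PCL@PDA and 180 and 189 CPM in Control. Both material groups lay above Control in that sum, and Col1a1 and Pdgfra were among the genes that rose in each. Thy1, the largest part of the sum, was at 156 and 162 CPM in PVDF@PDA, 161 and 170 CPM in PCL@PDA and 147 and 158 CPM in Control. PVDF@PDA and Control thus overlapped in Thy1. Dcn, also on that list, had 1 count in Control replicate 1 and 0 in every other library. The part of these marker differences in the results on proteasome genes was not tested, and in bulk samples fewer cells of a type and less RNA per cell cannot be told apart.

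Promoters are shown for the members that a later result turns on: Psmb7, Psmd5 and Psme2, which differed from Control in PVDF@PDA, and Psma3 and Psmd1, the genes with an antioxidant-type match among those that differed from Control in PCL@PDA. Each sequence runs 5′ to 3′ on the strand of its gene over 250 bases before and 50 bases after the start, as RefSeq gives it on the build GRCr8. Capitals mark every match to 4 motifs searched on both strands: TGACNNNGC (antioxidant response element, the type of site bound by Nfe2l1 and Nfe2l2), CCAAT (bound by NF-Y, reads ATTGG on the other strand), GAANNTTC (heat shock element) and AAANNGAAA (core of interferon response elements). The last motif was added after expression values had been seen.
Psmb7, chr3:42827421-42827720, minus strand: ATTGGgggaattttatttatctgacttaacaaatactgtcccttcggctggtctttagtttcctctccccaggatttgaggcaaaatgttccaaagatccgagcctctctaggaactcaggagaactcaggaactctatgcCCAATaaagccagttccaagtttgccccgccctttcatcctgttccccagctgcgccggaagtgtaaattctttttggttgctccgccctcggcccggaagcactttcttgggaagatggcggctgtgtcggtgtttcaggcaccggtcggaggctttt
Psmd5, chr3:38548441-38548740, minus strand: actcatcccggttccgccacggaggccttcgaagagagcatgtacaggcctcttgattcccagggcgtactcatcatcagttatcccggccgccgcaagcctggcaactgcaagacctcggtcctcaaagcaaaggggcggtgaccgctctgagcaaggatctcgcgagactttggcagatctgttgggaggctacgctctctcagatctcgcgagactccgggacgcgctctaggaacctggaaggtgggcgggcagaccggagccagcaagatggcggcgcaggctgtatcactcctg
Psme2, chr15:33052702-33053001, minus strand: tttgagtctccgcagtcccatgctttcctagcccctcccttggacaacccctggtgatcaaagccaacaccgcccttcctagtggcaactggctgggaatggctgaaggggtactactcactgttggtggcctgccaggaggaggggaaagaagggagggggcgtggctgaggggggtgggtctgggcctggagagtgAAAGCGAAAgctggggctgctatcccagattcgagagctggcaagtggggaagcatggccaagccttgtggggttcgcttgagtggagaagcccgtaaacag
Psma3, chr6:95219499-95219798, plus strand: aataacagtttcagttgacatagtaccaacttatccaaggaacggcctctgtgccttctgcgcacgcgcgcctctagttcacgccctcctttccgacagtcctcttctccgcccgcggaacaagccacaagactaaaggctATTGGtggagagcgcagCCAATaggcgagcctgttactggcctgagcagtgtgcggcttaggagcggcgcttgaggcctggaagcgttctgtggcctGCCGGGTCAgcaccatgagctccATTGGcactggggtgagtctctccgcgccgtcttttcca
Psmd1, chr9:94157721-94158020, plus strand: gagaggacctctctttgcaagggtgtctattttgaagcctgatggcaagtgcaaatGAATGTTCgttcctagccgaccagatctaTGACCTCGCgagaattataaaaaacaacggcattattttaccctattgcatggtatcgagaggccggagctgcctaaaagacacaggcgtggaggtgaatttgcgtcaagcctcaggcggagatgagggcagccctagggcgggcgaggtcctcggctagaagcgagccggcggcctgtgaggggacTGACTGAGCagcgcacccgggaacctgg
The Psmb7 promoter holds CCAAT once on each strand, and the Psme2 promoter holds the single interferon-type match AAAGCGAAA, 52 bases before the start. Psma3 has CCAAT at 3 places and an antioxidant-type match on the other strand close to its start. Psmd1 has 2 antioxidant-type matches and 1 heat shock match, and Psmd5 has none of the 4 motifs in this window. Psmd10 and Psmc2, not printed, also differed from Control in PCL@PDA. Psmd10 has CCAAT at 3 places and no other match, and Psmc2 has none of the 4 motifs. A promoter was matched for 34 members, all except Psma7, Psmb11, Psmd6, Psmd12 and Psmd14. Of these, 8 (23.5%) hold the antioxidant motif, against 12.1% of all 33469 promoters in the table. CCAAT is in 17 of 34 (50%) against 37.5% of all, the heat shock motif in 2 (5.88%) against 8.59%, and the interferon-type motif in 7 (20.6%) against 11.8%. The antioxidant motif lies in the promoters of Psma3, Psmb2, Psmb5, Psmb6, Psmd1, Psmd3, Psmd9 and Psme4, so it is present in genes of every role. These matches are letters in a window and say nothing of whether a factor binds there. The shares of all promoters also cover genes not counted in these cells and are not matched for expression level.

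Proteasome transcripts were abundant and even across the 6 libraries. Levels of different genes are compared as FPKM (counts divided by gene length and library total), since that scale divides by length. The median member had a mean of 98.8 FPKM over the 6 libraries, against 7.84 FPKM for the median of all tested genes, and 33 of the 38 tested members were among the top 10% of tested genes. The ratio of the highest to the lowest library in CPM had a median of 1.14 over the members. It was 1.30 over all tested genes and 1.17 over the 4421 tested genes with at least 50 CPM, a level that 37 members reach.

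Within the alpha rings, mean FPKM ran down to 78.4 for Psma1, below 178.7 for Psma6, the most abundant member. In the beta rings Psmb4, a structural subunit, led with 147.3 FPKM and Psmb3 was lowest of the 7 tested with 67.5 FPKM. The catalytic subunits stood in the order Psmb7 (125.7 FPKM), Psmb6 (104.5 FPKM) and Psmb5 (83.95 FPKM). The ranges of Psmb7 (117 to 140 FPKM) and Psmb6 (94.9 to 111 FPKM) over the libraries did not overlap, while that of Psmb5 (74.0 to 101 FPKM) overlapped the range of Psmb6. In the base, the ATPase Psmc3 was highest with 131.9 FPKM and Psmd1, a large scaffold subunit, lowest with 61.9 FPKM. The lid spread wider than the base and the rings of the core: Psmd14, the deubiquitinase that cuts the ubiquitin chain from the substrate, had 156.6 FPKM and Psmd3 had 36.2 FPKM. The base chaperones were low, with 61.1 FPKM for Psmd9, 36.3 FPKM for Psmd5 and 24.3 FPKM for Psmd10. Of the activators, Psme1 (175 FPKM) and Psme2 (124 FPKM), which form mixed rings together, stood above Psme3 (83.5 FPKM), a nuclear activator, and Psme4 (9.39 FPKM), a large activator tied to the breakdown of histones. Psmb11 encodes the catalytic subunit particular to the thymus. It had 6 and 0 counts in PVDF@PDA, 10 and 0 counts in PCL@PDA and 0 and 4 counts in Control, too few to be tested. Of the members, 6 overlap another counted gene in the RefSeq annotation: Psmb1 (with Tbp, 734.3 counts on average), Psmc6 (Styx, 1049.8 counts), Psmd1, Psmd5, Psmd8 and Psme1, and reads in the overlaps could be counted for either gene.

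**Figure D1:**
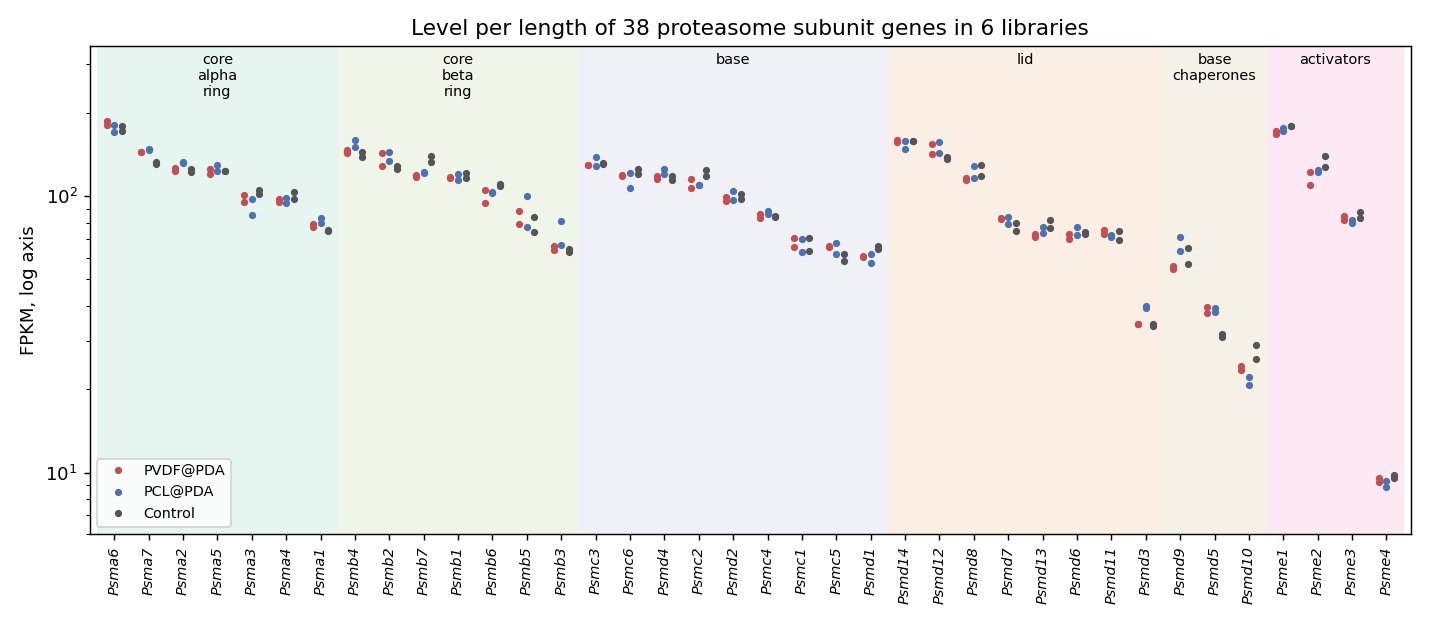
Level of each tested member in FPKM on a log axis, by role, with 1 point per library and colours for PVDF@PDA, PCL@PDA and Control. The points of a gene lie close together compared with the distances between genes: Psma6 is highest and Psme4 lowest, with 178.7 and 9.39 FPKM on average.

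The summed level of all members, a description with no test, was 5373 and 5402 CPM in PVDF@PDA, 5480 and 5377 CPM in PCL@PDA and 5581 and 5611 CPM in Control, after scaling by the trimmed mean of M values (TMM). Both Control libraries lay above all 4 material libraries, and the 2 material groups overlapped. As a share of all counts, with no such scaling, the members took 0.540% and 0.545% in PVDF@PDA, 0.550% and 0.548% in PCL@PDA and 0.547% and 0.553% in Control, so on that scale PCL@PDA and Control overlapped and PVDF@PDA lay below both. The activators summed to 651 and 665 CPM in PVDF@PDA, 671 and 649 CPM in PCL@PDA and 718 and 716 CPM in Control. The base summed to 1553 and 1527 CPM in PVDF@PDA, 1554 and 1531 CPM in PCL@PDA and 1617 and 1615 CPM in Control, and in both of these sums Control stood apart. The sums of the alpha rings overlapped in every pair of groups. Those of the beta rings and the lid were lower in PVDF@PDA than in Control and overlapped in the other pairs, and those of the base chaperones were lower in PVDF@PDA than in PCL@PDA and overlapped in the other pairs.

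In PVDF@PDA against Control, 3 of the 38 tested members passed the test. Psmd5 rose and Psmb7 and Psme2 fell, and no alpha ring, base or lid gene passed the test. A gene was called where edgeR's quasi-likelihood F test, 2-sided and adjusted by Benjamini-Hochberg over all 13018 genes, gave an adjusted p below 0.05. In this comparison 15.7% of all tested genes were called, 6.79% as higher and 8.90% as lower, beside 7.89% of the members. Which share was larger depended on the fit: with the batch term given below, that of the members was not the smaller. The members' median log2 difference was -0.05 with a range of -0.24 to 0.27, and the median of all genes was 0.01. The median size of the difference, whatever its sign, was 0.07 log2 over the members and 0.15 over all genes. These medians are not matched for level: the median width of the 95% interval was 0.24 log2 over the members and 0.43 over all genes. The 95% interval of the log2 difference stayed within ±0.25 for 28 members. Both PVDF@PDA libraries lay above both Control libraries for 5 members and below both for 23, where 29.4% and 29.2% of all genes did so. With library totals alone as the scaling these counts were 8 and 15 members, against 35.1% and 23.5% of all genes, so the lean towards lower values depends in part on the scaling. With the batch as an added term, 8 members were called, 1 higher (Psmd5) and 7 lower (Psmb6, Psmb7, Psmc2, Psmd1, Psmd8, Psmd13 and Psme2), while 19.9% of all genes were called in that fit.

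In PCL@PDA against Control, 6 of 38 members passed, or 15.8%, with 20.1% of all genes called, 8.77% higher and 11.3% lower. Psmd5 rose, and Psmb7, Psma3, Psmc2, Psmd1 and Psmd10 fell. The called genes were thus 1 of 7 in the alpha rings, 1 of 7 tested in the beta rings, 2 of 9 in the base, none of 8 in the lid, 2 of 3 base chaperones (in opposite directions) and none of 4 activators. The members' median log2 difference was -0.04 with a range of -0.39 to 0.27, against a median of 0.01 for all genes, and the interval stayed within ±0.25 for 24 members. Both PCL@PDA libraries lay above both Control libraries for 8 members and below for 15, where 28.3% and 27.8% of all genes did so. With library totals alone as the scaling these counts turned to 12 and 10 members, against 34.5% and 22.4% of all genes. Under library totals the 6 calls split into 3 higher (Psma7, Psmd3 and Psmd5) and 3 lower (Psma3, Psmb7 and Psmd10), and the calls of Psmc2 (adjusted p = 0.0649) and Psmd1 (adjusted p = 0.0745, both edgeR) ended. By limma on log2(FPKM + 1) the calls of Psma3 (adjusted p = 0.141), Psmb7 (0.0599), Psmc2 (0.127) and Psmd1 (0.151) ended. Both comparisons share the 2 Control libraries, so their values are not independent of each other.

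**Figure D2:**
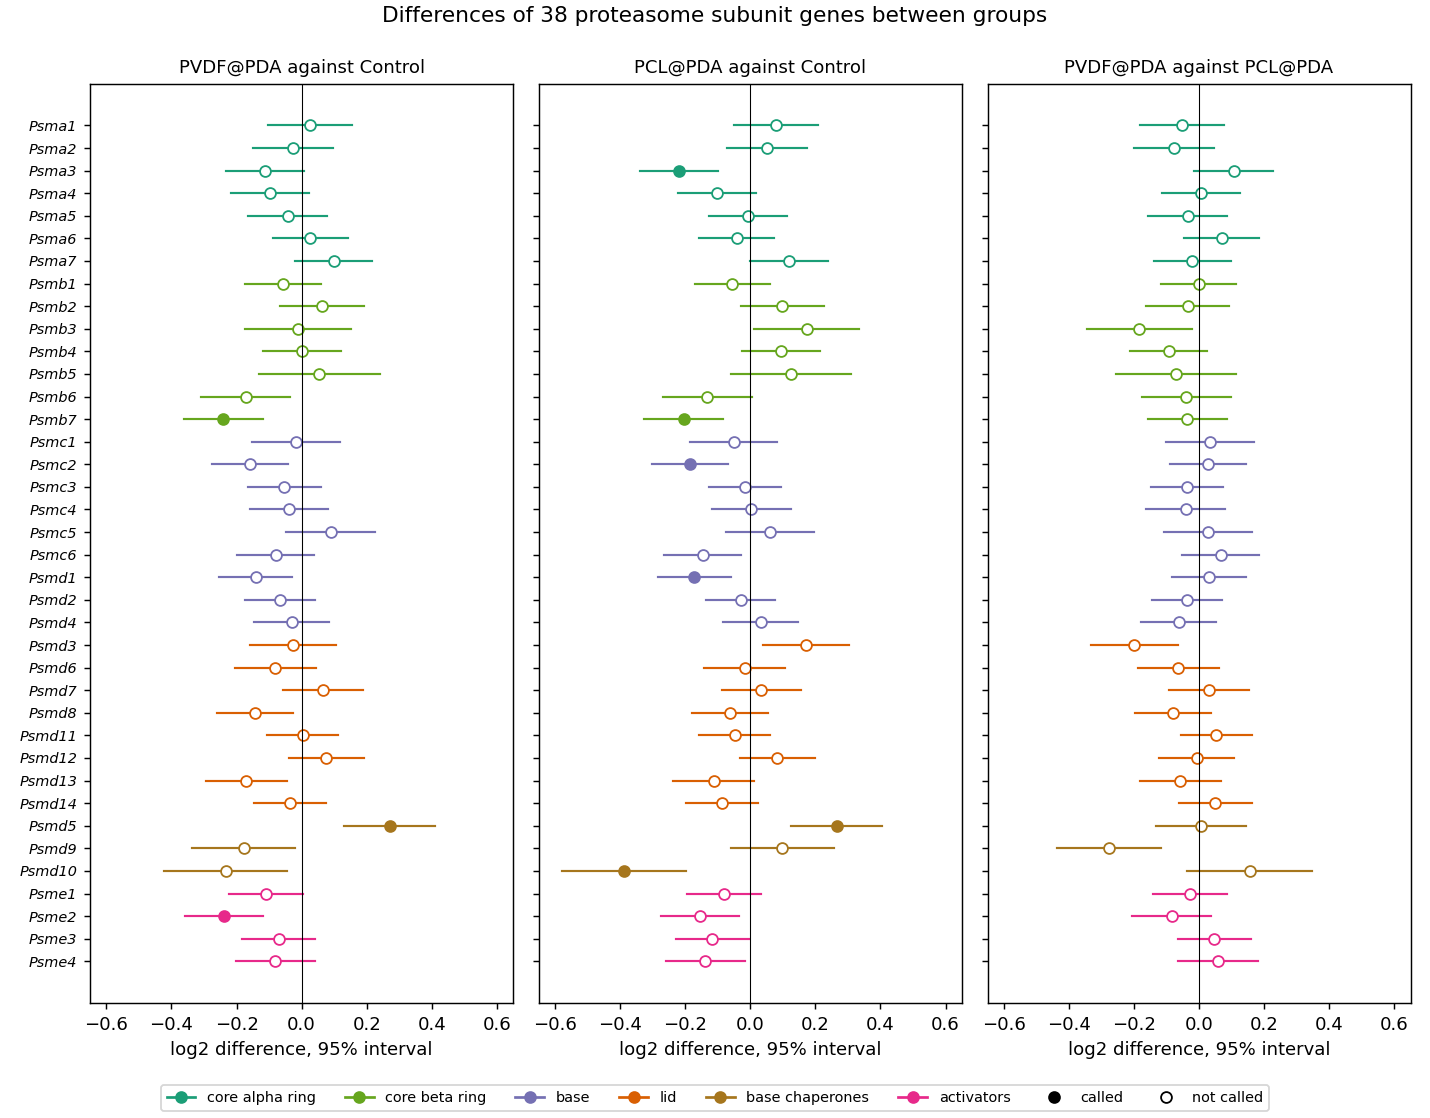
Log2 difference of each tested member with its 95% interval in PVDF@PDA against Control, PCL@PDA against Control and PVDF@PDA against PCL@PDA, ordered by role; filled points passed the edgeR test. Most intervals include 0, and the called members reach no further than 0.27 above and 0.39 below it.

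Psmb7 fell in both material groups. The gene encodes the trypsin-like catalytic subunit, and its promoter is among those printed above. It was at 116 and 113 CPM in PVDF@PDA, 119 and 116 CPM in PCL@PDA and 132 and 138 CPM in Control. All 4 material libraries lay below both Control libraries. The log2 difference was -0.24 ± 0.06 (SE) in PVDF@PDA against Control (edgeR adjusted p = 0.00327) and -0.20 ± 0.06 in PCL@PDA against Control (edgeR adjusted p = 0.0108). Within batches 1 and 3 it was -0.19 and -0.29 for PVDF@PDA and -0.15 and -0.26 for PCL@PDA. Without Control replicate 3 neither call held (edgeR adjusted p = 0.0749 for PVDF@PDA and 0.138 for PCL@PDA), and without PVDF@PDA replicate 3 the adjusted p was 0.0691 in PVDF@PDA against Control.

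The other catalytic subunits gave no call. Psmb6, the caspase-like subunit, was at 72.9 and 80.8 CPM in PVDF@PDA, 79.4 and 78.5 CPM in PCL@PDA and 87.4 and 85.8 CPM in Control. Its libraries were below Control in each material group, with a log2 difference of -0.17 in PVDF@PDA against Control (edgeR adjusted p = 0.0791, or 0.0468 with the batch as a term) and -0.13 in PCL@PDA against Control (edgeR adjusted p = 0.177). A Psmb6-like gene, LOC100360846, held 40 to 57 counts per library and could share reads with it. Psmb5, the chymotrypsin-like subunit, was at 67.5 and 74.7 CPM in PVDF@PDA, 65.5 and 84.0 CPM in PCL@PDA and 64.4 and 72.6 CPM in Control. These groups overlapped. The log2 difference of Psmb5 was 0.05 in PVDF@PDA against Control (edgeR adjusted p = 0.752) and 0.13 in PCL@PDA against Control (edgeR adjusted p = 0.374). The first turned to -0.02 without PVDF@PDA replicate 3 and to -0.03 without Control replicate 1. The second was -0.07 without PCL@PDA replicate 3 and 0.29 (edgeR adjusted p = 0.00114) without PCL@PDA replicate 1. Replicate 3 of Psmb5 exceeded replicate 1 in each group, by 0.15 log2 in PVDF@PDA, 0.36 in PCL@PDA and 0.17 in Control, which in each group is as large as or larger than the differences between groups.

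The immunoproteasome counterparts of these 3 genes, which are not members, give the scale of a larger change. Psmb8 was at 74.1 and 77.9 FPKM in PVDF@PDA, 76.5 and 77.0 FPKM in PCL@PDA and 100.3 and 115 FPKM in Control. Psmb8 fell by 0.54 log2 in PVDF@PDA (edgeR adjusted p = 1.6e-08) and by 0.53 log2 in PCL@PDA (edgeR adjusted p = 1.58e-08), both against Control. Psmb10 fell by 1.12 log2 (edgeR adjusted p = 8.41e-06) and by 0.88 log2 (edgeR adjusted p = 2.43e-04) in the same comparisons. Psmb9 had log2 differences of -0.40 (edgeR adjusted p = 0.0843) and -0.31 (edgeR adjusted p = 0.179). In FPKM the ratio of Psmb8 to its constitutive counterpart Psmb5 was 0.930 and 0.881 in PVDF@PDA, 0.992 and 0.766 in PCL@PDA and 1.36 and 1.37 in Control. Psmb8 transcripts thus exceeded those of Psmb5 in both Control libraries and in no material library. The ratio of Psmb10 to Psmb7 was 0.0491 and 0.0387 in PVDF@PDA, 0.0509 and 0.0499 in PCL@PDA and 0.0796 and 0.0818 in Control. These calls of Psmb8 and Psmb10 held without each library in turn.

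**Figure D3:**
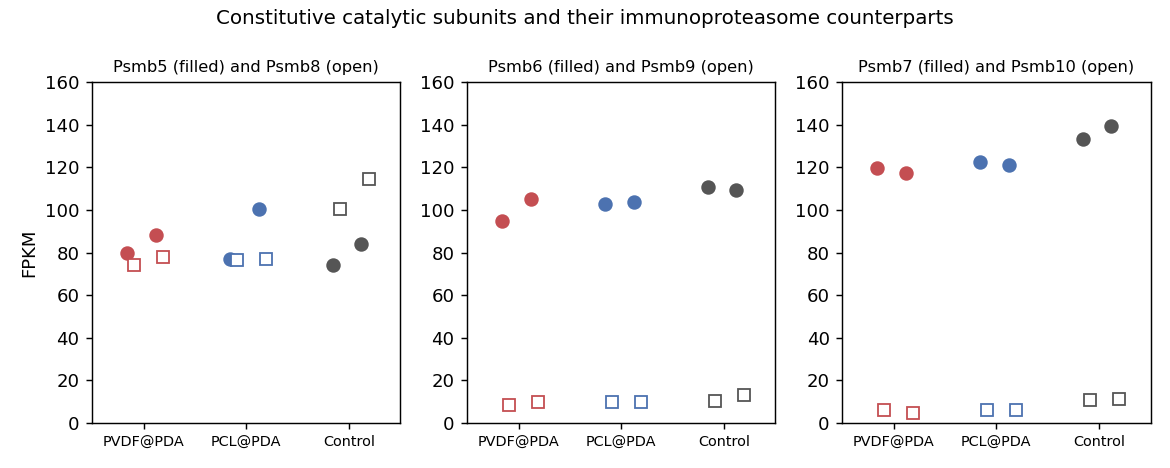
FPKM of the constitutive catalytic subunits and their immunoproteasome counterparts in each library, with PVDF@PDA, PCL@PDA and Control from left to right. Psmb8 lies near Psmb5 in the material groups and above it in Control, while Psmb9 and Psmb10 stay far below Psmb6 and Psmb7 in all libraries.

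Psma3, an alpha ring subunit whose tail helps to gate the core, was at 191 and 201 CPM in PVDF@PDA, 196 and 168 CPM in PCL@PDA and 216 and 208 CPM in Control. PCL@PDA replicate 3 was the lowest library, and both material groups lay below Control. In PCL@PDA against Control the log2 difference was -0.22 ± 0.06 (SE, edgeR adjusted p = 0.00634), with -0.15 in batch 1 and -0.30 in batch 3. It was -0.12 without PCL@PDA replicate 3 (edgeR adjusted p = 0.155), and without Control replicate 1 the adjusted p was 0.102 (edgeR). In PVDF@PDA against Control the log2 difference was -0.11 (edgeR adjusted p = 0.215). The other 6 alpha ring genes gave no call against Control in either material group.

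In the base, Psmc2, an ATPase of the unfolding ring, was at 161 and 150 CPM in PVDF@PDA, 154 and 151 CPM in PCL@PDA and 169 and 178 CPM in Control. Psmd1 was at 209 and 210 CPM in PVDF@PDA, 214 and 196 CPM in PCL@PDA and 234 and 228 CPM in Control. For both genes all material libraries lay below both Control libraries. The log2 difference in PCL@PDA against Control was -0.19 ± 0.06 for Psmc2 (SE, edgeR adjusted p = 0.0179) and -0.17 ± 0.06 for Psmd1 (SE, edgeR adjusted p = 0.0222). In PVDF@PDA against Control it was -0.16 for Psmc2 (edgeR adjusted p = 0.0562) and -0.14 for Psmd1 (edgeR adjusted p = 0.0781), and both were called there with the batch as a term. Without Control replicate 3 the call of Psmc2 in PCL@PDA ended (edgeR adjusted p = 0.201). That of Psmd1 ended without PCL@PDA replicate 3 (edgeR adjusted p = 0.174), Control replicate 1 (0.194) or Control replicate 3 (0.0653).

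No lid gene was called in either comparison with Control. Psmd14 was at 236 and 238 CPM in PVDF@PDA, 239 and 219 CPM in PCL@PDA and 244 and 242 CPM in Control. Its libraries were close to Control apart from PCL@PDA replicate 3, with a log2 difference of -0.04 in PVDF@PDA (edgeR adjusted p = 0.725) and -0.09 in PCL@PDA (edgeR adjusted p = 0.296), or -0.15 without PCL@PDA replicate 1 (edgeR adjusted p = 0.025). Psmd13, a structural lid subunit, was at 110 and 107 CPM in PVDF@PDA, 117 and 109 CPM in PCL@PDA and 118 and 126 CPM in Control. Its log2 difference of -0.17 ± 0.06 (SE) in PVDF@PDA against Control came next after the called genes (edgeR adjusted p = 0.051). With the batch as a term the adjusted p was 0.0225, and without PCL@PDA replicate 1 or 3 it was 0.00942 or 0.00848, all by edgeR.

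The base chaperones held the largest differences among the members. Psmd5 was at 76.4 and 79.6 CPM in PVDF@PDA, 77.0 and 78.5 CPM in PCL@PDA and 63.9 and 65.4 CPM in Control. All 4 material libraries were above both Control libraries, and Psmd5 was the only member called higher against Control in the fit of all 6 libraries with TMM scaling and no batch term. Its log2 difference was 0.27 ± 0.07 (SE) in PVDF@PDA (edgeR adjusted p = 0.00401) and 0.27 ± 0.07 in PCL@PDA (edgeR adjusted p = 0.00385), both against Control. Within batches 1 and 3 it was 0.26 and 0.28 for PVDF@PDA and 0.27 and 0.26 for PCL@PDA. Without Control replicate 1 the adjusted p was 0.0717 for PVDF@PDA and 0.0695 for PCL@PDA, and without PVDF@PDA replicate 3 it was 0.1001 for PVDF@PDA (edgeR). RGD1564854 overlaps Psmd5 on the other strand with a mean of 86.2 counts, and the counting strand is not known.

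Psmd10, also called gankyrin, fell in PCL@PDA. It was at 33.6 and 32.4 CPM in PVDF@PDA, 30.8 and 28.4 CPM in PCL@PDA and 36.7 and 40.8 CPM in Control. The 3 groups did not overlap, and PCL@PDA was lowest. The log2 difference was -0.39 ± 0.09 (SE) in PCL@PDA against Control (edgeR adjusted p = 0.00187), with -0.25 in batch 1 and -0.52 in batch 3, and -0.23 in PVDF@PDA against Control (edgeR adjusted p = 0.0843). Without Control replicate 3 the first was -0.31 (edgeR adjusted p = 0.0727).

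All 4 activators had lower values in every library of both material groups than in both Control libraries, where 29.2% of all genes in PVDF@PDA and 27.8% in PCL@PDA were likewise below both. Among them Psme2 in PVDF@PDA was called. Psme2 was at 147 and 163 CPM in PVDF@PDA, 164 and 164 CPM in PCL@PDA and 175 and 190 CPM in Control. The log2 difference was -0.24 ± 0.06 (SE) in PVDF@PDA (edgeR adjusted p = 0.00334) and -0.15 ± 0.06 in PCL@PDA (edgeR adjusted p = 0.0605, or 0.022 with the batch as a term), both against Control. The call in PVDF@PDA ended without PVDF@PDA replicate 1 (edgeR adjusted p = 0.192) and without Control replicate 3 (edgeR adjusted p = 0.138), and the adjusted p by limma on FPKM was 0.111. Psme1, the partner of Psme2, was at 168 and 171 CPM in PVDF@PDA, 176 and 170 CPM in PCL@PDA and 183 and 183 CPM in Control. Psme3 was at 221 and 213 CPM in PVDF@PDA, 215 and 206 CPM in PCL@PDA and 235 and 222 CPM in Control. Psme4 was at 115 and 118 CPM in PVDF@PDA, 116 and 109 CPM in PCL@PDA and 125 and 122 CPM in Control. The log2 differences of these 3 genes from Control lay between -0.14 and -0.07, with edgeR adjusted p of 0.107 to 0.442. Scaled by library totals or by edgeR's relative log expression factors, 3 activators in PVDF@PDA and 4 in PCL@PDA still lay below both Control libraries. So did 23.5% and 22.4% of all genes under library totals and 28.9% and 28.1% under the relative log expression factors.

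**Figure D4:**
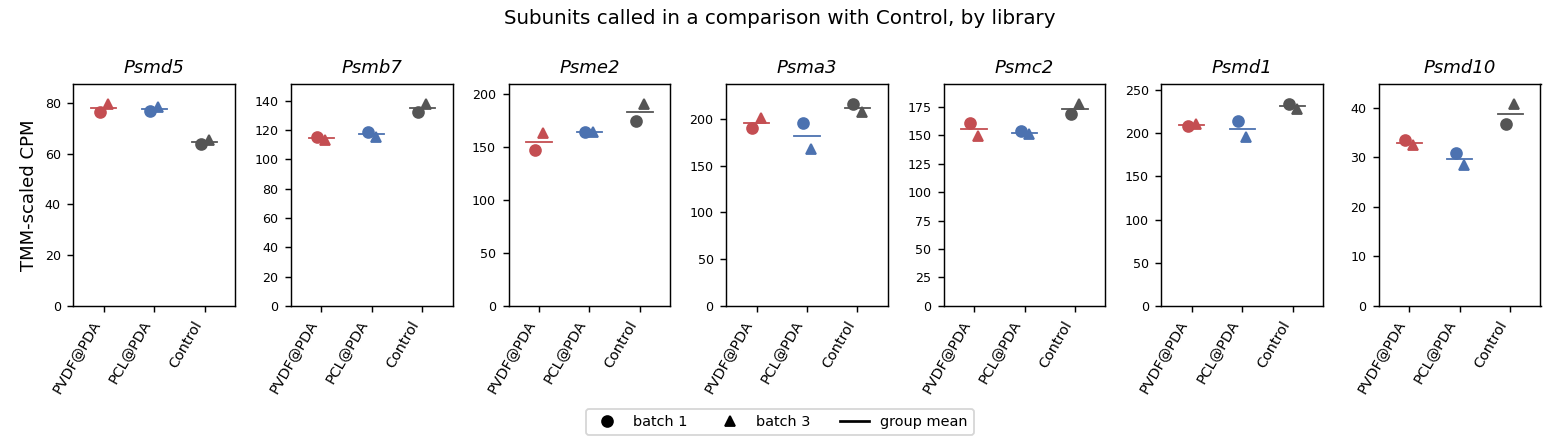
CPM of the 7 members called against Control in at least 1 material group, with 1 point per library and PVDF@PDA, PCL@PDA and Control from left to right. Psmd5 is higher and the other 6 genes are lower in all 4 material libraries than in both Control libraries.

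PVDF@PDA against PCL@PDA, the comparison of the piezoelectric with the non-piezoelectric material, gave no call among the members. By edgeR 0 of 38 passed, and 3 had a p below 0.05 before adjustment. DESeq2 gave 0 calls as well, with 2 members below that level. Over all genes 0.0615% were called, 0.0538% as higher and 0.00768% as lower, and 8.49% had a p below 0.05 before adjustment. The members' log2 differences ran between -0.28 and 0.16 with a median of -0.03, beside 0.0045 for all genes. For 33 of 38 the 95% interval stayed within ±0.25, so differences beyond that size lay outside the interval for those members. Both PVDF@PDA libraries were above both PCL@PDA libraries for 2 members and below for 11, where 19.2% and 18.9% of all genes did so.

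The 4 members with the smallest p in this comparison were Psmd9, Psmd3, Psmb3 and Psma3. Psmd9, a base chaperone, was at 50.8 and 51.6 CPM in PVDF@PDA, 58.8 and 65.2 CPM in PCL@PDA and 54.3 and 61.5 CPM in Control, with a log2 difference of -0.28 ± 0.08 (SE, edgeR adjusted p = 0.294). Its PVDF@PDA libraries were the lowest of the 6, and PCL@PDA and Control overlapped. Psmd3, a lid scaffold, was at 79.6 and 79.7 CPM in PVDF@PDA, 93.0 and 89.7 CPM in PCL@PDA and 80.8 and 81.5 CPM in Control. Here PVDF@PDA was close to Control and PCL@PDA stood above both, with a log2 difference of -0.20 ± 0.07 between the materials (SE, edgeR adjusted p = 0.401). Psmb3, a structural beta ring subunit, had -0.18 (edgeR adjusted p = 0.528) and Psma3 had 0.11 (edgeR adjusted p = 0.635). The intervals of the log2 difference were -0.26 to 0.11 for Psmb5, -0.18 to 0.10 for Psmb6, -0.16 to 0.09 for Psmb7 and -0.06 to 0.16 for Psmd14. For the activators they lay between -0.20 and 0.18.

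The count of 0 depended on 1 library. The median log2 distance between the replicates of a member was 0.04 in PVDF@PDA, 0.09 in PCL@PDA and 0.05 in Control. In PCL@PDA 4 members (Psmb5, Psmb3, Psma3 and Psmc6) were more than 0.2 log2 apart, and none was in the other groups. Without PCL@PDA replicate 1, 5 members were called between the materials, Psma3 and Psmc6 as higher and Psmb3, Psmb5 and Psmd9 as lower in PVDF@PDA, with 6.16% of all genes called in that fit. Without any other library 0 members were called. Psmb5 had a log2 difference of -0.24 without PCL@PDA replicate 1 and 0.12 without PCL@PDA replicate 3.

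Genes that work with the proteasome were described from lists of 44 genes, Psmb8, Psmb9 and Psmb10 included, of which 42 were counted and tested. Among 10 genes of the transcriptional control of the subunits and its processing, PVDF@PDA against Control gave 1 call above and 3 below Control, and PCL@PDA gave 2 above and 3 below. Of all genes tested, 15.7% were called in PVDF@PDA and 20.1% in PCL@PDA against Control, and the counts of the lists that follow are to be read against the same shares. Nfe2l1 was at 294 and 279 CPM in PVDF@PDA, 296 and 289 CPM in PCL@PDA and 331 and 331 CPM in Control. Nfe2l1 fell by 0.21 log2 in PVDF@PDA (edgeR adjusted p = 0.00336) and by 0.18 log2 in PCL@PDA (edgeR adjusted p = 0.0109). Nfe2l2, the related regulator of the antioxidant response, fell by 0.15 log2 (edgeR adjusted p = 0.0314) and by 0.19 log2 (edgeR adjusted p = 0.00466) in the same comparisons. Nfyc, a subunit of the CCAAT-binding factor, fell by 0.29 log2 in each (edgeR adjusted p = 0.00454 and 0.00344). Ddi2, the protease that activates Nfe2l1, rose by 0.22 log2 (edgeR adjusted p = 0.0243) and by 0.21 log2 (edgeR adjusted p = 0.0302), and Mafk, a small Maf partner, rose by 0.23 log2 in PCL@PDA (edgeR adjusted p = 0.025). Each of these 9 calls ended without Control replicate 1, at an edgeR adjusted p between 0.0507 and 0.277. In PVDF@PDA calls also ended without replicate 1 of that group (Ddi2, Nfe2l2 and Nfyc), without its replicate 3 (Ddi2, Nfe2l1 and Nfe2l2) and without Control replicate 3 (Ddi2 and Nfe2l2). In PCL@PDA they ended without its replicate 1 (Ddi2), without its replicate 3 (Mafk) and without Control replicate 3 (Ddi2, Nfe2l1 and Mafk). With library totals as the scaling, Nfe2l2 in PVDF@PDA had an edgeR adjusted p of 0.0797.

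Of 6 assembly factors, 1 was called, Akirin2, which carries proteasomes into the nucleus. It was at 93.9 and 88.5 CPM in PVDF@PDA, 85.8 and 80.2 CPM in PCL@PDA and 99.0 and 108 CPM in Control, and it fell by 0.32 log2 in PCL@PDA (edgeR adjusted p = 3.01e-04), a call that held without each library in turn. Pomp, the maturation factor of the core, had log2 differences of -0.02 and -0.04 in PVDF@PDA and PCL@PDA against Control (edgeR adjusted p = 0.866 and 0.684). Of 8 further subunits and regulators, 2 were called, both in PCL@PDA against Control. Usp14, a deubiquitinase bound to the base, fell by 0.24 log2 (edgeR adjusted p = 0.00148), and Zfand5, a proteasome activator, fell by 0.22 log2 (edgeR adjusted p = 0.00859). Both calls ended without Control replicate 1 (edgeR adjusted p = 0.0742 and 0.0664), and that of Zfand5 also without PCL@PDA replicate 3 (edgeR adjusted p = 0.154).

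Among 15 genes of ubiquitin and its shuttles, the polyubiquitin gene Ubb was at 703 and 726 CPM in PVDF@PDA, 729 and 779 CPM in PCL@PDA and 603 and 578 CPM in Control. Ubb rose by 0.27 log2 in PVDF@PDA (edgeR adjusted p = 5.34e-05) and by 0.35 log2 in PCL@PDA (edgeR adjusted p = 3.5e-07), and both calls held without each library in turn. Sqstm1, which hands ubiquitinated cargo to autophagy, rose by 0.15 log2 in PCL@PDA (edgeR adjusted p = 0.0293), a call that ended when any library other than PCL@PDA replicate 1 was left out (edgeR adjusted p = 0.056 to 0.263). PVDF@PDA against PCL@PDA gave 0 calls in every partner list by edgeR, with 3 genes at a p below 0.05 before adjustment.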

How the data were processed

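RNA of 6 libraries of RSC96 cells was sequenced, 2 per group. Read counts per gene were deposited unnormalised in 1 table. Each library also has a deposited table of FPKM, in which the authors divided counts by gene length and by the library's total. The submitters' processing notes name the rat build mRatBN7.2 and DESeq2 1.4.5, without their roles. The annotation, strand setting, aligner and counter were not given in the sources used here. All 39 members matched a gene ID in RefSeq (GRCr8), which served for overlaps and promoters only.

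The main test used edgeR 4.0.16 under R 4.3.3, with TMM scaling, the filterByExpr filter, which removed 3831 genes, and a robust quasi-likelihood fit of 3 group means over all 6 libraries (3 residual degrees of freedom, biological coefficient of variation 6.47%). The fit shares the estimate of spread across genes, with a median of 50.27 prior degrees of freedom. SE, intervals and p-values thus rest mostly on that shared estimate and less on a gene's own libraries. Each pair of groups was compared by the 2-sided F test, adjusted by Benjamini-Hochberg over the 13018 genes tested. The steps were tested on simulated counts. CPM are TMM-scaled, and 3 counts, taken as the floor, correspond to 0.0848 to 0.0916 CPM, which covers counting error only. Alternatives were a batch term (the replicate block), DESeq2 1.42.0, other scalings, no filter, no robust option, 4 libraries only, limma 3.58.1 on log2(FPKM + 1) or log2(FPKM + 0.1), and leaving out each library. The labels give replicate number and batch alike, which pairs libraries across groups. Over all genes, the deviations of batch mates from their group means correlated at -0.0089 between PVDF@PDA and PCL@PDA, at 0.045 between PVDF@PDA and Control and at 0.132 between PCL@PDA and Control.

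The members and the lists of partner and marker genes were chosen with earlier results of these data known, so no test was made over a list. Named were the members with the smallest p of each role among those called (up to 4), or the 4 with the smallest p where fewer than 5 were called, together with the catalytic subunits, Psmd14, the activators, Psmb11 and the called partner genes. Psma7, Psmd8, Psmc6 and other members named for their level, spread, overlap or motif matches alone were chosen after values were seen.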

Additional observations from a re-analysis of the deposited data

How the results depend on the processing

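The number of members called moved with the fit. In PVDF@PDA against Control the 3 calls became 8 with the replicate block, 5 with no filter on low counts and 9 with only the 4 libraries compared. The share of all genes called was 15.7% in the fit reported and 19.9%, 12.6% and 22.2% in these. Leaving out 1 library gave between 1 and 10, with 7.70% to 21.4% of all genes called (1 without PVDF@PDA replicate 3 or Control replicate 3). In PCL@PDA against Control, with 20.1% of all genes called, the 6 calls became 9 with the replicate block (23.4% of all genes) and 4 by limma on log2(FPKM + 1), 3 of them higher (10% of all genes). Leaving out 1 library gave between 2 and 13, with 10% to 23.6% of all genes called (2 without Control replicate 3, 3 without Control replicate 1 and 13 without PCL@PDA replicate 1). Between the materials the count stayed at 0 in all fits run except without PCL@PDA replicate 1, where it was 5 (6.16% of all genes), so leaving out 1 library gave 0 to 5. A group left with 1 library was assumed to vary like the others. Directions were followed only for the genes named by the rule above, and not for the other members. Among those named genes, directions turned only where there was no call in the comparison, with these ranges over the left-out libraries. Psmb5 ran between -0.03 and 0.139 log2 in PVDF@PDA against Control, between -0.069 and 0.293 in PCL@PDA against Control and between -0.24 and 0.12 between the materials, where Psmb6 ran between -0.117 and 0.0313 and Psmd14 between -0.0128 and 0.116. The cause of these changes was not tested. Among the members, the replicate block added calls of Psmb6, Psmc2, Psmd1, Psmd8 and Psmd13 in PVDF@PDA and of Psmc6, Psmd3 and Psme2 in PCL@PDA against Control, and ended none. With 2 libraries per group, differences near 0.2 log2 lay close to the threshold.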
